A study of Mus musculus with 20 samples.

Results

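N6-methyladenosine (m6A) positions that were listed in chromatin RNA of all 4 conditions of one study are described here: mouse embryonic stem cells (ESC) and cardiomyocyte cultures (CM) derived from them, each with and without Mettl3. A position was a pair of an Ensembl gene and an offset within it, repeated lines were dropped, and a pair was kept when the lists of both genotypes in both cell types held it. The pairs were thus selected on their presence in the m6A lists themselves, and the counts by list are a description. This left 4315 of 42515 listed pairs (10.1%), in 2587 of the 8326 genes with any listed position (31.1%). All cells were of the C57BL/6 strain, WT or Mettl3-KO (KO below), and values of the 4 libraries are given for ESC before CM and WT before KO. The CM groups came from ESC by way of embryoid bodies in medium with ascorbic acid, which were replated on gelatin. Chromatin-associated RNA was sequenced as such (ChrRNA-seq) and after pull-down with m6A antibodies (Chrm6A-seq), with 1 library per group, and open chromatin was mapped by ATAC-seq with 3 libraries per group. The labels do not say whether these 3 came from separate cultures, so p-values measure only the spread between libraries.

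m6A is the commonest internal modification of messenger RNA. METTL3, the catalytic subunit of the writer complex with METTL14, methylates adenosine within the consensus DRACH (D is any base but C, R a purine, H any base but G), mostly near stop codons and in long internal exons, and GGAC is its favoured core. A second modification that m6A antibodies also bind, N6,2′-O-dimethyladenosine, sits next to the cap of transcripts that start with adenosine and is written by another enzyme, and METTL16 methylates the U6 snRNA and Mat2a RNA.

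The lists give for each position a motif of 4 letters, and those that occurred were GGAC and AGAC, with a GAC core, and GAAC and AAAC, with an AAC core. All of these fit the first 4 letters of DRACH, and the lists do not give the base after them, so flanking sequence was read from RefSeq (GRCm38.p6) for positions that lie close enough to a gene start. Of 386 four-list and other positions within the first bases of a gene with a RefSeq start, 180 (46.6%) had the listed motif at exactly the listed offset on the gene's strand, against 1 to 7 at any other shift of up to 6 bases. An offset therefore counts from 0 at the first base of the gene to the first base of the motif. Of the 4315 positions listed in all conditions, 73 started at offset 38 or lower, 54 of these had a RefSeq start and 16 carried the motif there. The 8 of these with the highest chromatin RNA are shown because they are the sites whose surroundings can be read, with 8 bases on each side and the listed motif in capitals.

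Ddx39b, chr17:35241775-35241794, plus strand, offset 37: cgagcctgGAACcggaagtg
Rbm39, chr2:156180200-156180219, minus strand, offset 27: gctccgggAGACcccgggtg
Ifitm2, chr7:140955934-140955953, minus strand, offset 16: catcctccAGACggggcgat
Zfc3h1, chr10:115384978-115384997, plus strand, offset 27: aggagaggGAACtggcgagc
Kif20b, chr19:34922368-34922387, plus strand, offset 18: gaatttgaAAACcgggagga
Psmc6, chr14:45329845-45329864, plus strand, offset 29: atcatggcGGACcctagaga
Shmt2, chr10:127522422-127522441, minus strand, offset 11: tttcactcGAACttcacggg
Pdcd11, chr19:47090793-47090812, plus strand, offset 35: acgctcgtGGACgagtcgcg

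The sites of Ddx39b, Rbm39, Zfc3h1, Kif20b, Psmc6 and Shmt2 were full DRACH sites, and those of Ifitm2 and Pdcd11, which have a G after the motif, were not. Among all 16 readable sites, 12 were DRACH (75%, exact binomial interval 47.6 to 92.7%). In the same window of all RefSeq gene starts, 86.4% of sites with 1 of the 4 motifs were DRACH, which lies inside that interval. The 4 letters alone are common: GGAC stood in 18.9% of the first 50 bases of 32851 RefSeq starts, AGAC in 17.4%, GAAC in 14.6% and AAAC in 12.9%, all on the gene's strand. Ddx39b, an RNA helicase of splicing and mRNA export, had chromatin RNA at 32.5 and 32.6 RPKM (reads per length of gene and depth of library) in ESC and 31.7 and 22.6 in CM, each WT and then KO. Rbm39, a splicing factor, had 11.2, 11.5, 9.71 and 13.04 RPKM in the same order. These genes were transcribed in every library, with the CM KO value of Ddx39b the lowest of its 4 and that of Rbm39 the highest.

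The number of positions differed between lists, and so did the share that was common to all. ESC WT listed 16983 distinct pairs, ESC KO 18076, CM WT 25617 and CM KO 13962. The four-list positions made up 25.4% of the WT and 23.9% of the KO list of ESC, and 16.8% of the WT and 30.9% of the KO list of CM. A further 4855 pairs were on 3 lists, 9468 on 2 and 23877 on 1. Pairs on both WT lists and neither KO list numbered 1737, and pairs on both KO lists and neither WT list 713, so the four-list positions outnumbered both of these classes. The files give no score for a position and no depth of the m6A libraries. By the rule, every four-list position is also on both KO lists, and the method of calling is not given. Whether a listed position was methylated, and how strongly, is thus not shown.

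Some positions that missed the criterion by 1 list had a close neighbour there. Of the 4855 positions on 3 lists, 1412 (29.1%) had a position of the same gene within 50 bases on the list that lacked them, 1756 (36.2%) had one within 100 bases, and for 715 (14.7%) that list held no position of the gene. Listed positions of a gene lay close together, with a median gap of 270 bases and a lower quartile of 106. The share of such neighbours that this density alone would give was not determined. The CM KO list, the shortest, was the missing one for 1963 of these positions, ESC WT for 1208, ESC KO for 978 and CM WT for 706. A position that missed the criterion by 1 list therefore most often missed CM KO.

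Pooled by number of lists, GGAC was more frequent, and AAAC less frequent, the more lists held a position. GGAC made up 28.8% of the 23877 positions on 1 list (28.3 to 29.4%), 30.9% on 2 (30.0 to 31.9%), 33.1% on 3 (31.7 to 34.4%) and 35.7% of the four-list positions (34.3 to 37.1%, 1540 of 4315). AAAC fell in the same order from 22.95% (22.4 to 23.5%) through 20.2% and 18.04% to 16.1% (15.0 to 17.2%). AGAC and GAAC stood at 24.8% and 23.5% of the four-list positions, and at 24.2 to 25.2% and 23.1 to 24.7% in the other 3 classes. All intervals are exact binomial at 95% and cover counting error only, and positions of the same gene are not independent of each other. The class on both WT lists only came close to the four-list positions, with 35.5% GGAC (33.3 to 37.8%) and 17.6% AAAC. The class on both KO lists only had 27.2% GGAC (24.0 to 30.6%) and 25.2% AAAC, outside the four-list intervals. Single classes did not follow the number of lists alone. Positions on CM WT alone had 32.4% GGAC (31.6 to 33.3%) and 19.8% AAAC. Those on both CM lists only had 34.9% and 17.0%, and those on both ESC lists only 24.2% and 24.9%. Positions on 3 lists that lacked CM WT had 29.0% and 22.1%.

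Positions at the start of a gene were also more frequent. The first 200 bases held 344 four-list positions (7.97%, 7.18 to 8.82%), against 5.54% of positions on 3 lists, 4.69% on 2 and 3.57% on 1 (3.34 to 3.82%). The first 50 bases held 104 (2.41%, against 1.23% on 1 list) and the first 1000 bases 534 (12.4%, against 7.38%). Start positions did not carry 1 motif alone: 9.61% of four-list GGAC positions (8.18 to 11.2%) lay in the first 200 bases, 7.58% of AGAC, 7.11% of GAAC and 6.20% of AAAC (4.52 to 8.26%). The neighbouring classes on 3 lists differed from each other here. Of positions that only ESC WT lacked, 10.9% lay in the first 200 bases, and of those that only CM KO, ESC KO or CM WT lacked, 4.43%, 3.07% and 2.83%. Positions on the ESC WT list alone had 1.33% there, and those on both WT lists only 2.13%.

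**Figure D1:**
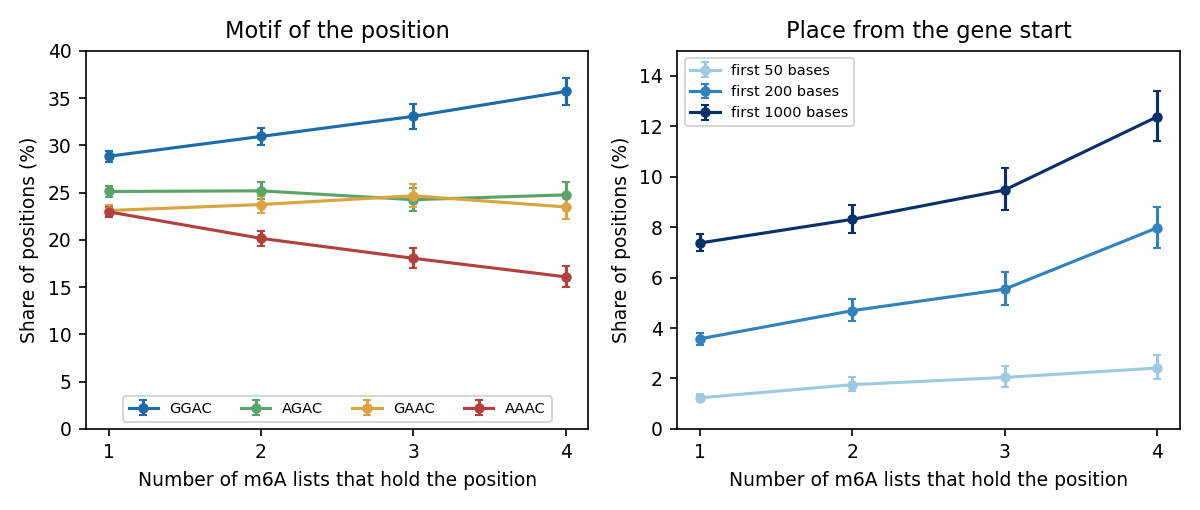
Left, share of positions with each motif (%) and right, share within the first 50, 200 and 1000 bases of the gene (%), by the number of lists that held the position, with exact 95% binomial intervals. GGAC went from 28.8% on 1 list to 35.7% on 4 while AAAC went from 22.95% to 16.1%, and the share in the first 200 bases from 3.57% to 7.97%.

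Four-list genes were more highly expressed, as described further on, so motif and place were also compared within ranges of mean chromatin RNA over the 4 libraries. In genes of 0.3 to 1 RPKM the classes were close, with GGAC at 36.0% of 1036 four-list positions and 34.0% of 7141 one-list positions. In genes of 4 to 8 RPKM GGAC stood at 37.2% of 422 four-list positions (32.6 to 42.0%) and 18.6% of 2286 one-list positions (17.0 to 20.2%), and AAAC at 16.4% and 32.3%. In genes of 8 RPKM or more GGAC stood at 30.3% of 264 (24.8 to 36.2%) and 15.3% of 934 (13.1 to 17.8%). At 0.1 to 0.3 RPKM GGAC stood at 32.1% of 81 four-list positions (22.2 to 43.4%) and 35.0% of 1808 one-list positions. Under 0.1 RPKM it stood at 21.1% of 19 and 37.1% of 431. From 0.3 RPKM upward the four-list share of GGAC thus lay between 30.3 and 37.2%, while the one-list share was lower in every higher range. From 0.3 RPKM upward the share in the first 200 bases rose with level among four-list positions and did not among one-list positions. It was 4.63% of four-list and 4.31% of one-list positions at 0.3 to 1 RPKM, and 14.8% and 2.46% at 8 RPKM or more. At 0.1 to 0.3 RPKM it was 2.47% of four-list and 4.76% of one-list positions. Within the 2117 genes that held both kinds, 35.7% of 3782 four-list positions (34.2 to 37.3%) and 25.1% of 11698 one-list positions (24.3 to 25.9%) were GGAC, and 6.50% and 1.66% lay in the first 200 bases.

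**Figure D2:**
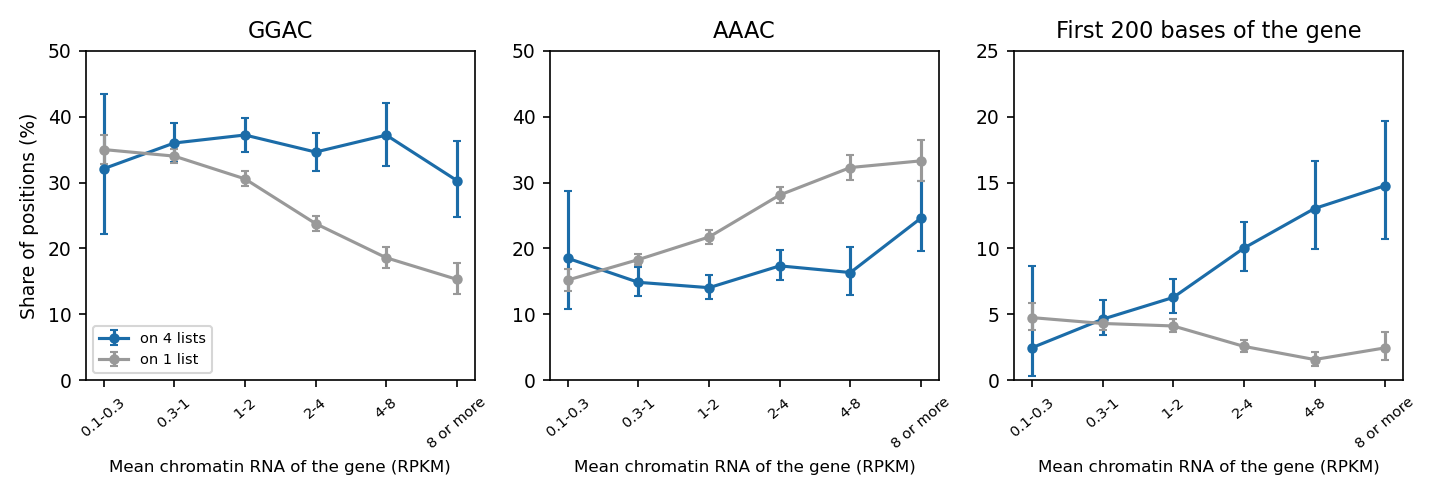
Share of positions (%) with GGAC, with AAAC and in the first 200 bases of the gene, against the mean chromatin RNA of the gene (RPKM ranges), for positions on 4 lists and on 1 list, with exact 95% binomial intervals. At 4 to 8 RPKM the classes stood at 37.2% and 18.6% for GGAC and at 16.4% and 32.3% for AAAC, while at 0.3 to 1 RPKM GGAC stood at 36.0% and 34.0%.

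Along the gene as a whole, the 4047 four-list positions that lie within the RefSeq length of their gene clustered at both ends. A further 121 positions in 80 genes lay past that length, as the authors' gene ends are not those of RefSeq, and were left out of places along the gene. The last 10% of the gene held 1234 (30.5%) and the first 10% 15.4%, against 30.0% and 12.5% of one-list positions. The four-list positions thus stood apart at the start and hardly at the end. The last 10% held 31.2% of GGAC and 27.5% of AAAC positions. The pairs on both WT lists only had 40.6% in the last 10%, more than the four-list positions. The median four-list position lay 19772 bases from the gene start and 6630 from its end, in genes of median length 38394 bases, against 23657, 9148 and 47401 for one-list positions. Whether a position is exonic, intronic or in a UTR was not determined, since no genome or exon annotation was used. Of the 4315 positions, 4091 (94.8%) were in protein-coding genes, 53 in lncRNA genes and 147 in genes with no RefSeq entry.

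**Figure D3:**
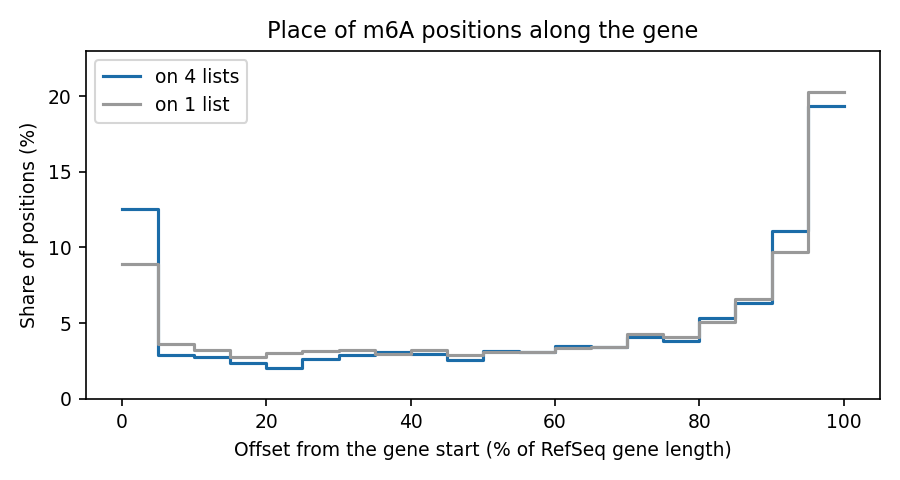
Share of positions (%) in each twentieth of the gene, from the start (0%) to the end (100%) of the RefSeq gene, for positions on 4 lists and on 1 list. Both lines rise towards the end, with 19.4% and 20.3% in the last twentieth, and the four-list line is the higher at the start.

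Most of the 2587 genes held 1 four-list position (1693, 65.4%), 508 held 2, and 62 held 6 or more. Genes with more positions were longer and had more chromatin RNA: the median of mean RPKM was 1.19 for genes with 1 position, 1.49 with 2, 2.16 with 3 to 5 and 3.56 with 6 or more, and the median gene length went from 28214 through 37870 and 43186 to 58178 bases. Neighbouring four-list positions of a gene lay a median of 1289 bases apart, and 45.5% of 1728 gaps were under 1000 bases. The median gap between all listed positions was 270 bases. The four-list positions are a part of these, and gaps widen when only a part of the positions is taken.

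Mki67, the proliferation marker that coats mitotic chromosomes, held 13 four-list positions, as many as any gene. It lies on chromosome 7, from 135689784 to 135716450 of GRCm38.p6. Its positions ran from offset 8199 to 26403, and 10 of them fell between 8956 and 21751. The lists held 33 and 32 of its positions in ESC and 36 and 36 in CM. Its chromatin RNA was 6.73, 11.4, 5.13 and 9.35 RPKM in the same order, higher in the KO library of both cell types, at 1.69 (1.63 to 1.75) and 1.82 (1.75 to 1.89) times the WT library. Ratios in brackets like these carry 95% counting intervals on reads estimated from the RPKM, compare 2 libraries and not 2 conditions, and have no replicate check. Gm47283, which has no RefSeq entry, also held 13, with 29.5, 32.8, 20.5 and 27.6 RPKM.

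Zfp292, a zinc finger gene on chromosome 4, and Plec, which encodes the cytoskeletal linker plectin, held 12 each. In Zfp292, 9 of the 12 lay between offsets 71639 and 79646 of a gene of 79874 bases, and 8 of the 12 were AGAC. Its RNA was 4.52, 4.94, 3.44 and 4.14 RPKM, and that of Plec 0.923, 0.749, 1.30 and 1.00. Plec thus held as many shared positions as Zfp292 at a lower RNA level in every library. Smcr8, which works with C9ORF72 in autophagy, held 10 in a gene of 10763 bases, from offset 53 to offset 7799, at 1.93, 1.90, 1.91 and 2.33 RPKM. These 10 were among 23 of Smcr8 on any list.

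**Figure D4:**
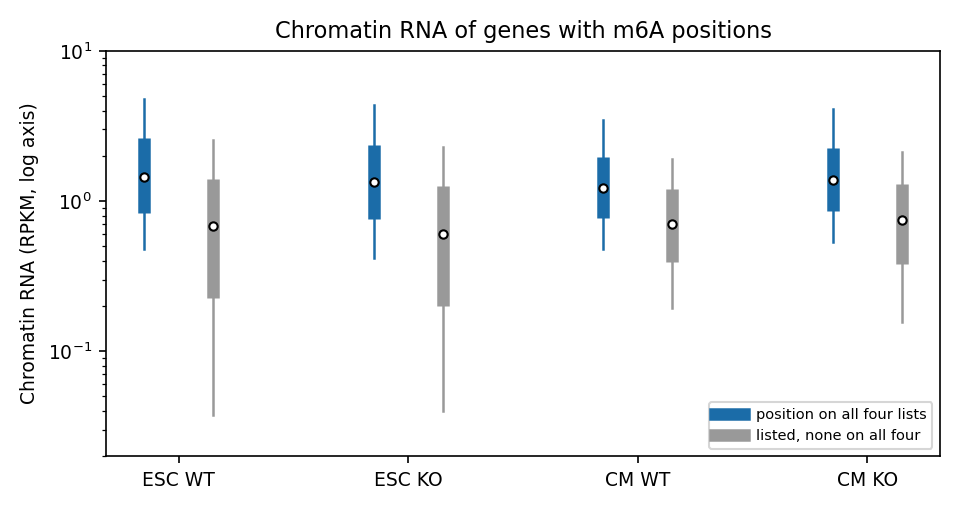
Chromatin RNA (RPKM, log axis) of genes with a four-list position and of genes listed without one, in each library; the point is the median, the box the 25th to 75th and the line the 10th to 90th percentile. Four-list medians lay between 1.21 and 1.45 RPKM and the others between 0.603 and 0.743.

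Genes with a four-list position had higher chromatin RNA in every library. Their median was 1.45 RPKM in WT and 1.33 in KO ESC, and 1.21 in WT and 1.38 in KO CM, against 0.683, 0.603, 0.698 and 0.743 for the 5739 listed genes without one. At least 1 RPKM in all 4 libraries was reached by 1315 four-list genes (50.8%) and by 1270 of the others (22.1%). A level under 1 RPKM in all libraries was still found for 567 four-list genes (21.9%), against 51.3% of the others. The share of listed genes with a four-list position went from 5.44% under 0.1 RPKM through 23.2% at 0.3 to 1 and 40.9% at 1 to 2 to 63.0% at 4 to 8 RPKM, and was 53.4% at 8 or more. Detection of a position depends on reads, so the part of RNA level in which positions were listed in all conditions was not tested. The ChrRNA-seq libraries had about 27900000, 28000000, 29400000 and 29800000 estimated reads, and the RPKM was taken over the whole gene. Of the 2587 genes, 7 had no value in at least 1 of the RNA files and were taken as 0 there, among them Ctsh, Gm4750 and Hist1h2br, all with 1 four-list position. Catip, Gm22122 and Gm6568, also with 1 each, were at 0 in all 4 libraries.

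The labels and cell types bear on the next comparisons. Mettl3 had no listed position and its RNA was at 1.73, 1.28, 1.18 and 1.07 RPKM. RNA over the whole gene checks neither the deletion nor the protein, so KO and WT stand for the labels. Of 9 cardiomyocyte markers, 5 reached 1 RPKM in CM WT and none in CM KO, with summed levels of 9.62 and 1.51 RPKM, while in ESC WT and ESC KO 3 of the 9 were at 0 and the sums were 0.723 and 0.592. Fibroblast markers summed to 29.8 in CM WT and 8.03 in CM KO, endoderm markers to 15.9 and 6.42, embryonic blood markers to 40.7 and 45.1, and ESC markers to 8.22 and 14.2, against 65.7 and 62.5 in the ESC libraries. The CM libraries thus held RNA of markers of several cell types at unequal levels. The part of cell composition in the ratios below was not tested. Fewer cells of a type and less RNA per cell cannot be told apart.

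Few four-list genes differed 2-fold between KO and WT when 1 was added to each RPKM. Ratios are on the log2(RPKM + 1) scale, which understates changes of low genes, for genes that reached 1 RPKM in 1 or both of the libraries compared. In ESC, 1787 of the 2587 genes passed this filter, and their median KO to WT log2 ratio was -0.09, as was that of all 5240 genes. Of the 1787, 2 were at least 2-fold higher in KO on this scale (0.112%) and 0 lower, where all genes gave 1.49% and 0.649%. On plain RPKM more of them passed in both directions. Kcnq1ot1 in ESC KO had 2.19 times its WT level and Gja1 0.443, and such genes were not counted. In CM, 1829 passed with a median of 0.14, against 0.13 for all 5170 genes, 6 were at least 2-fold higher (0.328%, against 2.11% of all) and 2 lower (0.109%, against 1.37%). Listed genes without a four-list position also lay under all genes, with 0.362% higher and 0.181% lower in ESC and 0.620% higher and 1.11% lower in CM. Smaller shares past 2-fold than among all genes were thus found for listed genes of both kinds. The genes were chosen for a listing in all 4 conditions, and nearly all of them had RNA in every library. The part of this choice in the smaller shares was not tested. With the libraries scaled so that the median ratio of all genes was 0, the medians of the four-list genes lay between 0.011 and 0.025 in the 4 comparisons, so their direction is not given. The shift of all genes on the unscaled log2 RPKM scale was -0.15 for KO to WT in ESC and 0.21 in CM, and -0.42 for CM to ESC in WT and -0.06 in KO.

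Between cell types more of the genes differed, yet again a smaller share than of all genes. From ESC WT to CM WT, 28 of 1936 were at least 2-fold higher (1.45%, against 4.6% of all 5865) and 89 lower (4.60%, against 6.5%). From ESC KO to CM KO, 34 of 1907 were higher (1.78%, against 5% of all 5558) and 25 lower (1.31%, against 3.67%). Listed genes without a four-list position gave 6.28% higher and 6.74% lower in WT, and 5.92% higher and 3.10% lower in KO, close to all genes or above them except for the genes lower in KO. On the log2(RPKM + 1) scale the medians were -0.24 and -0.02, where all genes had -0.25 and -0.04. The 4 comparisons share libraries in pairs, so they are given side by side and are not independent of each other.

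The pluripotency genes Tdgf1, Tet1 and L1td1 were among the lowest CM to ESC ratios in both genotypes. Tdgf1, the NODAL co-receptor, had 30.2 and 22.1 RPKM in ESC and 3.41 and 4.88 in CM, and the CM WT library had 0.113 (0.104 to 0.123) of the ESC WT level. Its four-list position was an AAAC at offset 70 of the gene. Tet1, a 5-methylcytosine dioxygenase, stood at 11.8, 8.72, 1.45 and 1.70 RPKM, and 1 of its 104 listed positions was on all lists, as the lists held 60, 61, 14 and 9 of them. Zfp57, which maintains imprints, had 11.8, 9.07, 1.99 and 2.49 RPKM with 2 four-list positions, and L1td1, an RNA-binding protein of pluripotent cells, 9.90, 7.85, 1.9999 and 1.74. For all of these both CM libraries lay below both ESC libraries. These genes were named from those with a four-list position, so its presence on the CM lists follows from the choice. Of 28 pluripotency genes, 26 were listed and 6 held a four-list position (10 of 302 listed pairs, 3.31%, against 10.1% of all listed pairs). The others named by this list were Sall4, Tbx3 and Klf2.

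The imprinted genes Peg10 and Peg3 were among the highest CM to ESC ratios in both genotypes. Peg10, a retrotransposon-derived gene, held 6 four-list positions between offsets 8245 and 11596 and had 3.28 and 3.86 RPKM in ESC and 20.6 and 59.0 in CM. Its CM KO level was 15.3 (14.5 to 16.1) times that of ESC KO and 2.87 (2.80 to 2.94) times that of CM WT. Peg3, a zinc finger gene, held 3 and stood at 2.33, 1.31, 15.0 and 11.6 RPKM. Thus Peg10 was highest in CM KO, whereas Peg3 was highest in CM WT. Serpinh1, the collagen chaperone HSP47, had 0.560, 0.702, 7.68 and 6.67 RPKM, and Thbs1, an extracellular matrix glycoprotein, 0.722, 0.427, 7.01 and 2.83. Thbs1 was lower in the KO library of both cell types, at 0.592 (0.489 to 0.712) and 0.404 (0.378 to 0.431) of WT, beside the lower fibroblast markers of CM KO. Of 26 imprinted coding genes, 21 were listed and 5 held a four-list position (13 of 257 pairs, 5.06%, against 10.1% of all listed pairs).

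Kcnq1ot1 had one of the highest KO to WT ratios in ESC. This antisense lncRNA silences neighbouring imprinted genes and overlaps Kcnq1. It stood at 3.84 RPKM in ESC WT and 8.43 in ESC KO, 2.19 (2.14 to 2.25) times as much, and at 4.88 in CM WT and 11.03 in CM KO, 2.26 (2.21 to 2.31) times. It was thus higher in both KO libraries. Of its 136 listed positions, 5 were on all lists, and the lists held 11, 70, 51 and 77, fewest in ESC WT. The counting does not state strand, so reads of Kcnq1 cannot be told apart from its own. Meg3, an imprinted lncRNA with 1 four-list position, went the other way, with 6.45 and 3.34 RPKM in ESC WT and KO and 18.3 and 10.0 in CM WT and KO, or 0.518 (0.495 to 0.542) and 0.546 (0.532 to 0.560) of WT.

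The other KO to WT extremes are given by cell type, and differences between the cell types were not tested. Gja1, the gap junction protein connexin 43, stood at 6.87 RPKM in ESC WT and 3.04 in ESC KO, and at 7.40 and 8.07 in CM WT and KO. Spry2, an inhibitor of receptor tyrosine kinase signalling, had 6.47, 3.00, 3.14 and 2.49 RPKM, and Fzd7, a WNT receptor, 5.88, 3.00, 7.16 and 8.58. In ESC these 3 had 0.443 (0.413 to 0.476), 0.463 (0.411 to 0.522) and 0.511 (0.452 to 0.577) of the WT level on plain RPKM. Kpna1, an importin alpha gene that overlaps another gene, had 8.25, 16.3, 20.4 and 14.2 RPKM. In CM, Myo3a, a myosin gene that overlaps another gene, had 2.24 RPKM in WT and 9.09 in KO, 4.06 (4.01 to 4.12) times, with its single four-list position at offset 362276. Fzd10, another WNT receptor, had 0.534 and 2.73 RPKM, 5.12 (3.72 to 7.13) times. Ccn2, a matricellular protein, had 6.39 and 3.12, 0.489 (0.425 to 0.563) of WT, and Tmsb4x, an actin-binding protein, 20.4 and 10.4.

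Components of the m6A machinery carried shared positions. Of the 8 writer complex genes, 5 were listed, and each of these held a four-list position. They were Rbm15 (4), which guides the complex to RNA, Wtap (3), its adaptor, and Cbll1, Virma and Zc3h13 (1 each). This made 10 of 64 listed pairs (15.6%), against 10.1% of all listed pairs. Of all listed genes, 31.1% held a four-list position. Rbm15 stood at 7.72, 6.75, 5.12 and 6.75 RPKM, and Wtap at 4.64, 4.23, 1.99 and 2.36. Wtap was lower in both CM libraries. Of 12 reader and eraser genes, 11 were listed and 7 held a position, 16 of 122 pairs (13.1%). There were 3 each in Ythdf1, Ythdf2 and Hnrnpa2b1 and 2 each in Ythdf3, Ythdc1 and Hnrnpc. Hnrnpa2b1 had the highest level of these readers, at 14.3, 17.5, 12.2 and 15.2 RPKM. Other m6A methyltransferases held none of their 1 listed pair. Mat2a, the S-adenosylmethionine synthetase gene that METTL16 methylates, held 1 of its 9 listed positions on all lists, an AGAC at offset 5287 of 6761 bases, at 9.49, 8.95, 4.53 and 5.59 RPKM. It overlaps another gene, and 4 letters do not show whether its position is a METTL16 site.

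Of 55 chromatin regulators, 53 were listed and 40 held a four-list position, against 31.1% of all listed genes. By pairs, 134 of 1176 were on all lists, and this 11.4% was near the 10.1% of all pairs. The H3K4 methyltransferase genes Kmt2a and Kmt2d held 10 each, Kmt2b 9 and Kmt2c 7, and Asxl1, a Polycomb-associated gene, 8. Kmt2a stood at 2.07, 2.10, 2.23 and 2.27 RPKM and Kmt2d at 1.13, 1.32, 2.21 and 1.81, so Kmt2a was near level and Kmt2d higher in both CM libraries. Of 9 four-list positions in Kmt2b, 6 were GGAC and 3 AGAC, while Kmt2c had 6 AGAC, 1 GAAC and no GGAC. Splicing and RNA processing genes held one in 27 of 32 cases, 77 of 529 pairs (14.6%), led by the RNA helicase gene Ddx17 with 9, the nuclear speckle genes Son and Srrm2 with 8 each and Rbm39 with 7. Ddx17 had 9.75, 9.35, 10.2 and 11.2 RPKM and Srrm2 8.26, 6.68, 7.88 and 8.45.

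Of 464 zinc finger genes, 330 were listed and 120 held a four-list position, 258 of 2175 pairs (11.9%). Of 28 cell cycle genes, 25 were listed and 12 held one, 27 of 214 pairs (12.6%). The 31.1% given above is over listed genes only. Top2a, the topoisomerase of dividing cells, held 2 and Cenpf, a kinetochore protein, 3. Of 76 histone genes, 32 were listed and 8 held one, 8 of 41 pairs (19.5%). In every case it lay at offset 129 or lower, as in Hist1h4a at offset 69 and Hist1h2bf at offset 80. Near-identical histone copies can share reads, so these are uncertain. Of 84 cytosolic ribosomal protein genes, 55 were listed and 9 held one, 9 of 124 pairs (7.26%). None of 13 cardiac transcription factor genes (37 listed pairs) and none of 18 sarcomere genes (186 pairs) held one. Only 7 of the sarcomere genes were listed, and Ttn held 157 of their pairs and Tpm1 24. The median levels of the cardiac transcription factor and sarcomere genes in ESC WT were 0.00869 and 0.0114 RPKM. The groups' shares thus ran from 0% to 19.5% around 10.1%, and no test was made on them.

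Long noncoding RNAs with shared positions included some of the most abundant. Of 24 nuclear and imprinted lncRNAs, 20 were listed and 7 held one, 23 of 522 pairs (4.41%, against 10.1% of all listed pairs). Airn held 168 of the 522 pairs and Kcnq1ot1 136. Tug1 held 9, between offsets 2705 and 8394 of 9030 bases, with 10.3, 9.43, 6.06 and 9.54 RPKM. Malat1, a nuclear speckle RNA whose m6A is well known, held 5 of its 9 listed positions, between offsets 62 and 3918, with 425, 634, 647 and 559 RPKM. Snhg12, a snoRNA host, held 1, with 893, 948, 443 and 510 RPKM. Malat1 and Snhg12 each overlap another RefSeq gene, and RPKM was taken over the whole gene. Reads of the overlapping genes cannot be told apart from theirs. Among small RNA genes, the snRNA genes Gm22973, Gm25202 and Gm26108 each had a GGAC at offset 80 and Gm24763 a GGAC at offset 79, in genes of 190 or 191 bases, and the snoRNA gene Gm24949 a GGAC at offset 81. The fifth snRNA gene, Gm26316, differed in motif and place, with a GAAC at offset 175 of 191 bases and 2468, 4470, 2092 and 2558 RPKM. Gm22973 had 12503, 16691, 6590 and 10381 RPKM. Genes of this kind can be near-identical copies that share reads, so these values are uncertain.

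The start of a gene with a four-list position was open chromatin in nearly every case. Since the positions are offsets within genes, gene starts were set against the ATAC-seq intervals, for 1602 four-list genes with a single RefSeq start. The share of starts inside an interval was 94.4%, 94.1% and 94.3% in the WT and 93.3%, 93.4% and 93.6% in the KO libraries of ESC. In CM it was 93.9%, 94.9% and 93.9% in WT and 94.1%, 93.7% and 93.3% in KO. The ESC KO libraries all lay below the ESC WT libraries, and the CM groups overlapped. Starts of 3477 other listed genes gave 88.3 to 91.5% and all 22862 single starts 42.3 to 45.3%. In all 12 libraries 1451 of the 1602 starts (90.6%) were inside an interval and in none 61 (3.81%), against 84.6% and 6.53% of the other listed genes.

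No difference of these shares between groups passed 0.05, which 3 libraries against 3 cannot reach. ESC KO gave 93.4% ± 0.191 and ESC WT 94.3% ± 0.187 (SD, n = 3), a difference of -0.832 percentage points (two-sided exact permutation test, p = 0.1, the smallest that 3 against 3 allow, adjusted p = 0.4 over 4 comparisons). CM KO gave 93.7% ± 0.406 and CM WT 94.2% ± 0.613 (SD, n = 3), a difference of -0.520 points (exact p = 0.4, adjusted p = 0.533). CM WT minus ESC WT was -0.0208 points (exact p = 1), and without CM WT replicate 1 or replicate 3 it was 0.156. CM KO minus ESC KO was 0.291 points (exact p = 0.4, adjusted p = 0.533). When a start within 500 bp of an interval counted as inside, ESC KO minus WT was -0.125 points (exact p = 0.3), CM KO minus WT -0.0624 (exact p = 0.8) and CM KO minus ESC KO -0.104 (exact p = 0.6). The KO difference in CM minus that in ESC was 0.312 points (exact permutation of genotype within cell type, p = 0.635, 400 arrangements). The number of called intervals ran from 70132 in a CM KO library to 119307 in an ESC WT library.

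**Figure D5:**
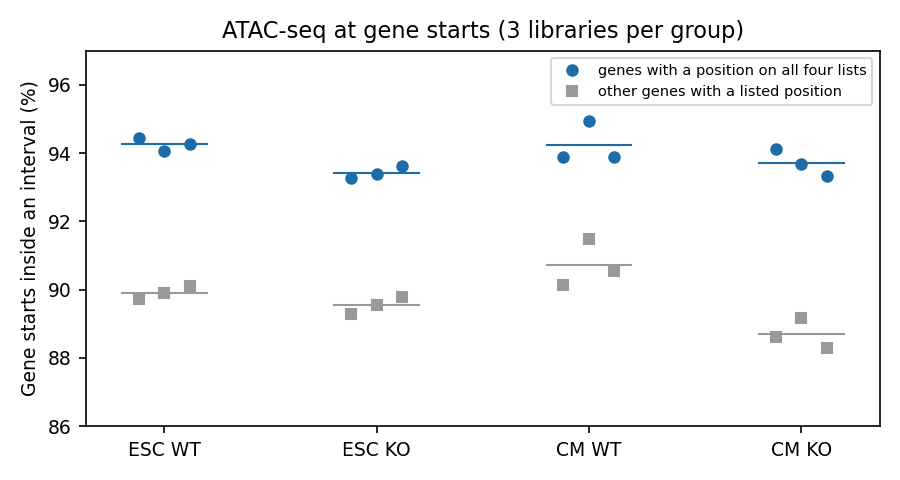
Share of gene starts inside an ATAC-seq interval (%), 1 point per library and a line at the mean of 3, for genes with a four-list position and for other listed genes. The vertical axis does not start at 0. Four-list genes lay between 93.3 and 94.9% and other listed genes between 88.3 and 91.5%.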

How the data were processed

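The deposited m6A lists hold an Ensembl gene, a position (the authors' unit is not stated, and it was read as an offset in bases from the RefSeq starts) and a motif. The method of calling positions is not given in the sources used. The ChrRNA-seq values were scaled by the authors to RPKM, per the deposited files. ATAC-seq intervals were deposited per library in narrowPeak layout, with the authors' score, fold enrichment ratio and −log10 p and q values; of these the −log10 q was used, in 1 alternative. Per the submitters' processing notes, the build was mm10 and the tools included MACS2, HISAT2, Bowtie, cutadapt and Picard, whose roles and versions they do not give. Strandedness of counting is not given there.

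Pairs, shares, ratios and tests were computed with Python 3.11.15, numpy 2.4.6, pandas 2.3.3 and scipy 1.17.1, and figures with matplotlib 3.10.9. The scripts were checked on simulated data. RPKM ratios used a pseudocount of 1 and a filter of 1 RPKM in either library. Since RPKM values do not keep counts, a count test was not made. The steps between low RPKM values gave estimated reads, of which 54.2 to 56.5% came out whole within 0.05 reads, so the estimates are approximate. Of the 2587 members, 2581 IDs matched a symbol and 2500 a RefSeq gene (GRCm38.p6), and 1231 overlap another RefSeq gene. RefSeq and the authors' gene ends can differ, by far in some genes: an offset of 1501028 in Chd1, with a RefSeq length of 67646 bases, and of 14335 in Zbtb6, with 5420. The 121 positions past the RefSeq length were left out of places along the gene.

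Members and gene lists were chosen with earlier results of these data known. Named genes were the 15 with most positions, members of 17 gene lists, the 5 highest and 5 lowest ratios of each comparison among 1730 genes with a mean of at least 1 RPKM, and the 10 of highest level. Genes of the readable start sequences, small RNA genes, those with no RNA value and those with long offsets were named for that. The test of positions inside ATAC-seq intervals was planned for genome coordinates; gene starts replaced it after the files were seen. A DRACH share over all positions and matching by position alone were not run, since the files hold the first 4 of its 5 letters and gene offsets. Replicate numbers did not pair the ATAC-seq libraries. One CM KO ATAC-seq sample is labelled as RNA, and its file is a peak list like the others.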

Additional observations from a re-analysis of the deposited data

Results flagged for a closer look

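Gm26561, which has 1 four-list position of 7 listed and no RefSeq entry, moved in opposite directions in the 2 cell types. It stood at 1.45 RPKM in ESC WT and 4.44 in ESC KO, a log2(RPKM + 1) ratio of 1.15, and at 4.55 in CM WT and 1.14 in CM KO, a ratio of -1.38. It is shown because the single library pairs differed at least 2-fold in opposite ways. The difference was not tested, since there was 1 library per group.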

How the results depend on the processing

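The 4315 positions became 9168 when a position of the same gene within 50 bases counted as the same and 10927 within 100 bases, and 5021 to 6278 when 1 list was left out. The GGAC difference of 5.79 percentage points between four-list and other positions was 8.78 in genes holding both kinds (chosen after seeing the data) and -5.53 for the AAC cores, which are the complement of the GAC cores. The median log2 ratios moved with the settings in this order: pseudocount 0.1, pseudocount 0.5, no filter, filter at 0.1 RPKM, libraries scaled to a median ratio of 1. For ESC KO to WT they were -0.12, -0.10, -0.064, -0.065 and 0.013, and -0.10 without overlapping genes. For CM KO to WT they were 0.21, 0.18, 0.11, 0.11 and 0.011. For CM WT to ESC WT they were -0.36, -0.30, -0.16, -0.16 and 0.025. For CM KO to ESC KO the 3 last settings gave 0.010, 0.012 and 0.023. The scaling removes a shift of all genes, which on unscaled log2 RPKM was -0.15, 0.21, -0.42 and -0.06, so the direction of these medians rests on the scaling. Counts of four-list genes at least 2-fold higher were, with pseudocounts of 0.1 and 0.5, 91 and 52 for CM WT to ESC WT and 111 and 61 for CM KO to ESC KO, and 11 for CM KO to WT with 0.1. After scaling they were 61 for CM WT to ESC WT and 6 for ESC KO to WT. Counts at least 2-fold lower, with the same pseudocounts, were 264 and 155 for CM WT to ESC WT, 63 and 40 for CM KO to ESC KO and 12 and 2 for ESC KO to WT, and 4 for CM KO to WT with 0.1. CM WT to ESC WT gave 38 lower after scaling and 43 without overlapping genes. The cause was not tested.

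With the replicate number as a block, an exact paired test of the ATAC-seq shares gave p = 0.25 for ESC KO minus WT (-0.832 points; 0.25 is the smallest it can give), 0.5 for CM KO minus WT, 1 for CM WT minus ESC WT and 0.75 for CM KO minus ESC KO. The deviations of same-numbered libraries correlated at -0.190 to 0.0991, so the numbers do not pair them. Leaving out 1 library gave -0.936 to -0.739 for ESC KO minus WT, -0.728 to -0.166 for CM KO minus WT, -0.375 to 0.156 for CM WT minus ESC WT (0.0728 without ESC WT replicate 1, 0.156 without CM WT replicate 1 or 3) and 0.0832 to 0.489 for CM KO minus ESC KO. CM KO minus ESC KO was -0.104 within 500 bp of an interval (exact p = 0.6) and 0.916 with equal numbers of intervals (exact p = 0.1), and CM WT minus ESC WT was -0.166 (exact p = 0.4) and 0.499 (exact p = 0.2). Within 500 bp, ESC KO minus WT was -0.125 (exact p = 0.3) and CM KO minus WT -0.0624 (exact p = 0.8), both far smaller in size. With equal numbers CM KO minus WT was -0.312 (exact p = 0.4). Over all alternatives, 82 values kept their direction and side of the threshold or moved little, 33 moved and 11 reversed.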
